A study of Mus musculus with 8 samples.

Results

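Resident macrophage and complement C1q genes were followed: C1qa, C1qb, C1qc, Mrc1, Cd163, Pf4, Csf1r, Adgre1, Lyz2 and Tyrobp. They were chosen by name, with earlier results of these data known. All 10 were measured among the 19938 genes of the array, each by 1 transcript cluster (the set of probes that the array summarises into 1 value). RNA of the whole gastrocnemius, a muscle of the calf, was measured in 8 males, each on 1 array. The 4 knockout mice were Gcn5skm-/-, with a floxed Kat2a gene (Gcn5 L2/L2) and 1 copy of a Cre transgene under the human skeletal actin promoter (HSAcre Tg/0). The 4 wild types were Gcn5skm+/+, with the same floxed gene and no Cre (HSAcre 0/0), so effects of Cre itself and of losing Kat2a cannot be told apart. The promoter is known for its activity in muscle fibres, and Kat2a was not measured in macrophages or fibres separately. All animals were 6 months old, on chow and fasted for 5 h. Values are log2 expression, in which 1 unit is a doubling, and differences are knockout minus wild type.

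Macrophages live between the fibres of healthy muscle, where they take up debris and dying cells, and more of them enter after injury. Csf1r is the receptor for the growth factors CSF1 and IL-34, on which these cells depend. C1qa, C1qb and C1qc encode the chains of C1q, the recognition protein that starts the classical complement cascade and that macrophages make themselves. Mrc1 and Cd163 are uptake receptors typical of resident macrophages, Adgre1 is the surface protein F4/80, and Tyrobp is an adaptor that passes on signals from receptors such as TREM2.

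Kat2a, the targeted gene, which encodes the acetyltransferase Gcn5, measured 5.73 to 5.84 in the knockouts, against 6.43 to 6.50 in the wild types (difference -0.66, limma adjusted p = 0.0319). That call was lost with the replicate block (limma adjusted p = 0.113), over all deposited clusters (0.0660) and without any 1 knockout, wild type 3 or wild type 4 (0.0619 to 0.137), while the difference stayed at -0.64 to -0.68. Whether its probes lie in the deleted part is not stated. Of all genes 3 (0.015%) passed a false discovery rate of 0.05. The fibre actin Acta1, a marker of the labelled tissue, averaged 12.63 ± 0.03 in knockout and 12.67 ± 0.04 in wild-type muscle (SD). No detection calls were given, and the values of Adgre1 and Cd163 lay close to the array medians of 4.61 to 4.72. Whether those genes stood above background cannot be told. The same holds for other dim genes named below, among them Itgam, C1ra, Cd300ld, Blnk, Mpeg1, Csf2rb, Ptprc, Ppbp and Ccr2. Wild type 2 stood apart on the first principal component (32.2, 29.8% of the variance), and the second (21.0%) set knockout 4 (20.0) against wild type 4 (-20.9).

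Of the 10 genes, 9 had a higher mean in knockout than in wild-type muscle, while 45.3% of all genes did. Their median difference was 0.15, against -0.01 over all genes. None passed the test (0 of 10 at a limma adjusted p under 0.05; over all genes 0.00502% were higher and 0.01% lower at that level). At an unadjusted p under 0.05, 4 were higher (Tyrobp, C1qb, Adgre1 and Lyz2) and 0 lower; over all genes 2.34% were higher and 3.39% lower at that level. Leaving out knockout 4, all 10 means were higher in knockout, by a median of 0.16, and 3 genes (Tyrobp, C1qb and Csf1r) had an unadjusted p under 0.05, with 0 past the adjusted threshold. In that fit 45.2% of all genes had a higher mean, and 1.76% were higher at an unadjusted p under 0.05. Without wild type 1, 7 of the 10 had a higher mean and 2 an unadjusted p under 0.05. None of the 10 passed adjustment, and in these bulk samples macrophage number, RNA per macrophage and RNA of other cells cannot be told apart.

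**Figure D1:**
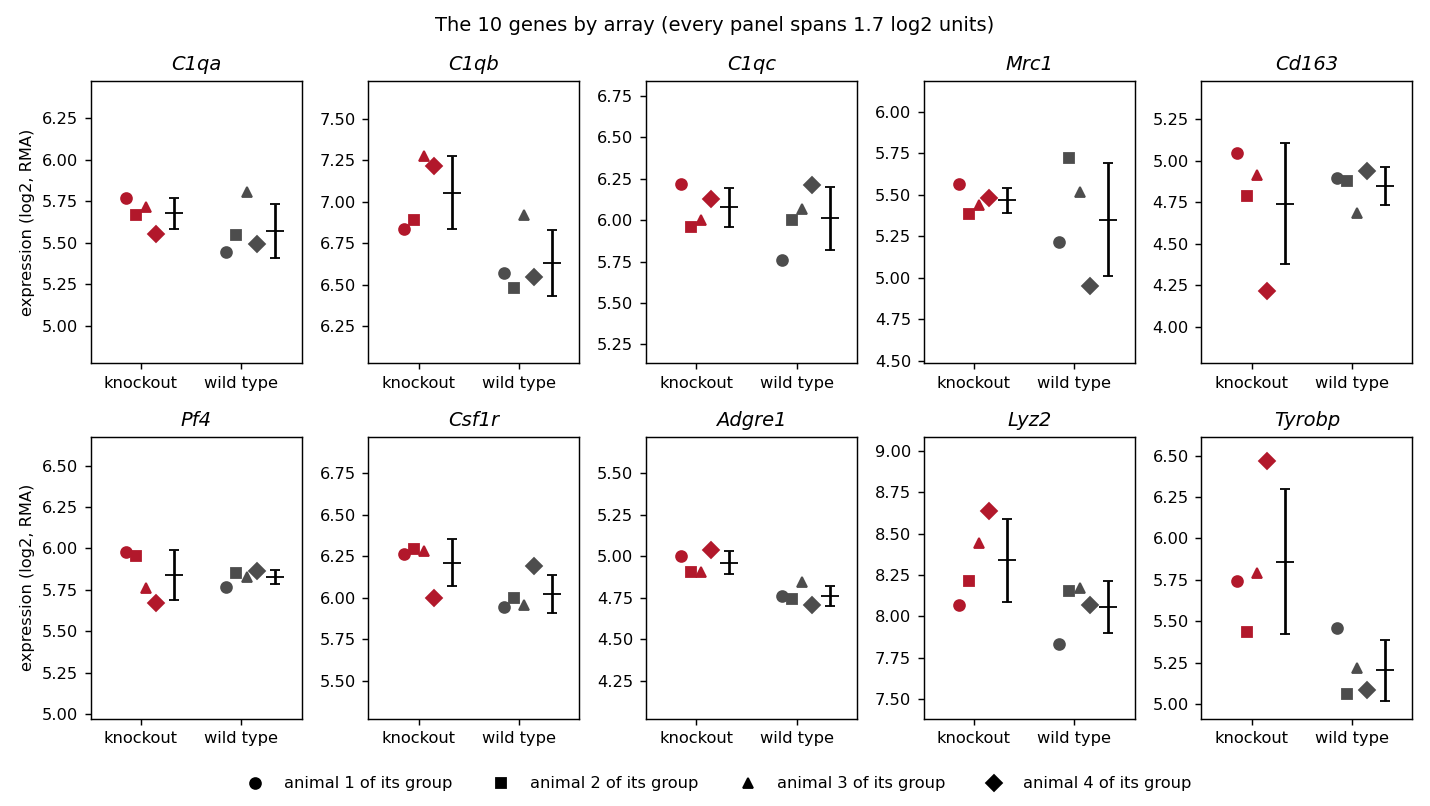
Expression (log2, RMA) of the 10 genes in each of the 4 knockout arrays (left, red) and the 4 wild-type arrays (right, grey), with the marker shape giving the animal and the bar at the right of each group its mean and SD. The groups do not overlap for Adgre1, and they overlap for the other 9 genes; Cd163 in knockout 4 lies at 4.22, below every other array.

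The 3 chains of C1q had knockout minus wild-type differences of 0.42 (C1qb), 0.11 (C1qa) and 0.07 (C1qc), and none passed the test. C1qb measured 6.84, 6.89, 7.28 and 7.21 in knockouts 1 to 4, against 6.57, 6.48, 6.92 and 6.55 in wild types 1 to 4. All 4 knockouts lay above the wild-type mean, and 2 of them above every wild type; wild type 3 reached into the knockout range. The difference was 0.42 (SE 0.13, 95% interval 0.15 to 0.70, 1.34-fold, unadjusted p = 0.00603, limma adjusted p = 0.733). C1qa measured 5.77, 5.67, 5.72 and 5.55 in the knockouts, against 5.44, 5.54, 5.81 and 5.49 in the wild types. For C1qa, wild type 3 was the highest of all 8 arrays and the groups were interleaved (difference 0.11, SE 0.10, interval -0.11 to 0.32, limma adjusted p = 0.917). Without wild type 1 the C1qa difference was 0.06, and without wild type 3 it was 0.18. C1qc measured 6.22, 5.96, 6.00 and 6.13 in the knockouts, against 5.76, 6.00, 6.07 and 6.21 in the wild types. Its groups overlapped over most of their range (difference 0.07, SE 0.11, interval -0.17 to 0.30, limma adjusted p = 0.945). The intervals of the 3 chains overlap, and the difference between the chains was not tested.

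The 3 C1q genes stand next to each other on chromosome 4, in the order C1qb, C1qc, C1qa, with no other entry between them in RefSeq's gene table for GRCm38.p6. The bases before the start of C1qb (chr4:136886201-136886450, minus strand) and of C1qc (chr4:136892915-136893164, minus strand) are shown because these neighbours encode chains of 1 protein and had differences of 0.42 and 0.07. Those of Cd163 (chr6:124304401-124304650, plus strand) and Pf4 (chr5:90772185-90772434, plus strand) are shown because both genes were lower in knockout 4 than in every wild type. Each is 250 bases long and runs from 5′ to 3′ up to the base before the RefSeq start, on GRCm38.p6. Capitals mark GAGGAA or its reverse complement TTCCTC, the core of the site of PU.1, a transcription factor of myeloid cells.
C1qb: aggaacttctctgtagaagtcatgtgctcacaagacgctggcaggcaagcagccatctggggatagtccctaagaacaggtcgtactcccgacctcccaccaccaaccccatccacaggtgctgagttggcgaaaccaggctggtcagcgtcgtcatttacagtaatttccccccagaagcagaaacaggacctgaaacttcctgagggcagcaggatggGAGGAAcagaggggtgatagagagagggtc
C1qc: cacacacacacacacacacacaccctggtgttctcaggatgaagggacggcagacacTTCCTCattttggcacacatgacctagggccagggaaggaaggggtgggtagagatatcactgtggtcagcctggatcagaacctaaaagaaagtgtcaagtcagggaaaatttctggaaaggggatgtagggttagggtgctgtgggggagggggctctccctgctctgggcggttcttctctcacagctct
Cd163: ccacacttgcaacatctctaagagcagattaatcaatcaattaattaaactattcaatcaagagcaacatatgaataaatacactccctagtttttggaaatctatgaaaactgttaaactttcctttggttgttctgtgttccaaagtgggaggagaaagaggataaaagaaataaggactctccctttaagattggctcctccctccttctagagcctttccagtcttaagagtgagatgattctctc
Pf4: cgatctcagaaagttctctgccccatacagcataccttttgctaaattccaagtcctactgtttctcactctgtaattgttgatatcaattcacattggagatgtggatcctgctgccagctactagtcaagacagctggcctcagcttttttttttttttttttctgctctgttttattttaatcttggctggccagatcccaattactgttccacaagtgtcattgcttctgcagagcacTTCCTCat

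Windows from RefSeq were searched for 6 of the 10 genes (C1qb, C1qc, Cd163, Lyz2, Mrc1 and Pf4). For the 10 genes, the search left out chromosome 18, where Csf1r lies, and no window was at hand for C1qa, Adgre1 and Tyrobp. The motif was found 1 time each for C1qb, C1qc and Pf4, with its first base at -30, -193 and -8 from the start, and 3 times for Mrc1. It was not found in these windows for Cd163 and Lyz2. Windows of the same length held it on either strand in 23.3% of 32851 promoters, so 4 of 6 is a description of letters only. A MAF half-site, TGCTGAC or GTCAGCA, which does not contain that core, was in 0 of the 6 windows and in 3.81% of all promoters.

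Of the receptors, Csf1r measured 6.26, 6.30, 6.28 and 6.00 in knockouts 1 to 4, against 5.95, 6.00, 5.96 and 6.19 in wild types 1 to 4. Knockouts 1 to 3 lay above every wild type, and knockout 4 lay among the wild types. The difference was 0.19 (SE 0.10, interval -0.03 to 0.40, limma adjusted p = 0.869), and 0.26 without knockout 4 (unadjusted p = 0.0220, limma adjusted p = 0.976). Adgre1 measured 5.00, 4.90, 4.91 and 5.04 in the knockouts, against 4.76, 4.74, 4.84 and 4.70 in the wild types. It was the only one of the 10 genes whose groups did not overlap, with a gap of 0.06 between the lowest knockout and the highest wild type; over all genes the groups were apart for 1.48% higher and 2.14% lower in knockout (3.62% in either direction). Its difference was 0.20 (SE 0.08, interval 0.02 to 0.38, 1.15-fold, unadjusted p = 0.0294, limma adjusted p = 0.861).

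Mrc1, the mannose receptor, measured 5.56, 5.38, 5.44 and 5.48 in the knockouts, against 5.21, 5.72, 5.52 and 4.95 in the wild types. The SD was 0.08 in the knockouts and 0.34 in the wild types, which spanned the whole knockout range. The difference was 0.12 (SE 0.14, limma adjusted p = 0.934), and -0.02 without wild type 4. Cd163, which clears haemoglobin bound to haptoglobin, measured 5.05, 4.79, 4.91 and 4.22 in the knockouts, against 4.90, 4.88, 4.68 and 4.94 in the wild types. Knockouts 1 to 3 lay around the wild types and knockout 4 lay below all of them. The difference was -0.11 (SE 0.15, interval -0.44 to 0.23, limma adjusted p = 0.939), and 0.07 without knockout 4.

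Among the secreted products, Lyz2, the lysozyme of macrophages and neutrophils, measured 8.07, 8.21, 8.44 and 8.64 in the knockouts, against 7.83, 8.15, 8.17 and 8.07 in the wild types. Knockouts 2 to 4 lay above every wild type, and knockout 1 lay level with wild type 4. The difference was 0.28 (SE 0.13, interval 0.01 to 0.56, 1.22-fold, unadjusted p = 0.0451, limma adjusted p = 0.861), and 0.19 without knockout 4 (limma adjusted p = 0.976). Pf4, a chemokine of platelets that resident macrophages also express, measured 5.98, 5.96, 5.76 and 5.67 in the knockouts, against 5.77, 5.85, 5.83 and 5.86 in the wild types. Knockouts 1 and 2 lay above all wild types and knockouts 3 and 4 below them, and the difference was 0.01 (SE 0.09, interval -0.19 to 0.22, limma adjusted p = 0.987).

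Tyrobp had the widest difference of the 10 genes. It measured 5.74, 5.43, 5.79 and 6.47 in the knockouts, against 5.46, 5.06, 5.22 and 5.09 in the wild types. Knockouts 1, 3 and 4 lay above every wild type, and knockout 2 lay just under wild type 1, so the groups overlapped. The difference was 0.65 (SE 0.18, interval 0.26 to 1.05, 1.57-fold, unadjusted p = 0.00361, limma adjusted p = 0.611). Without knockout 4 it was 0.45 (unadjusted p = 0.00479, limma adjusted p = 0.896), and across all alternatives it ran from 0.40 to 0.79.

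**Figure D2:**
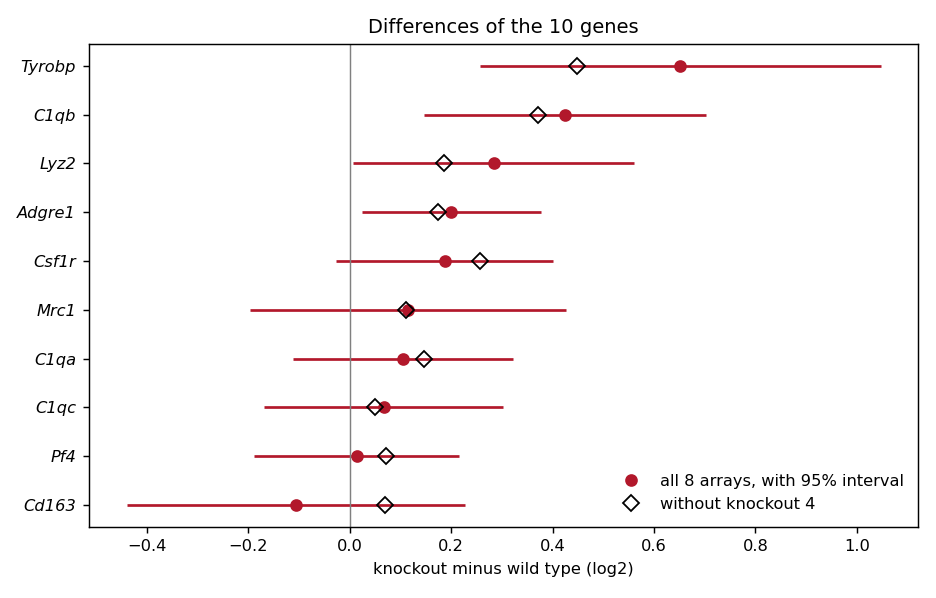
Knockout minus wild-type difference (log2) of each gene with its 95% interval from limma (red, all 8 arrays) and the same difference without knockout 4 (open diamonds). The intervals of Tyrobp, C1qb, Lyz2 and Adgre1 lie above 0 before adjustment, and Cd163 goes to 0.07 when knockout 4 is left out.

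Knockout 4 divided the 10 genes. It held the highest value of all 8 arrays for Tyrobp, Lyz2 and Adgre1 and the lowest for Cd163 and Pf4. Relative to the mean of knockouts 1 to 3 it was 0.81 higher for Tyrobp, 0.39 higher for Lyz2 and 0.21 higher for C1qb. Cd163 was -0.70, Csf1r -0.28, Pf4 -0.23 and C1qa -0.17 from the same mean. The other knockouts were more even: knockout 1 lay above the wild-type mean for 10 of 10 genes, and knockouts 2 and 3 for 8 each, against 6 in knockout 4. The same array also had the lowest slow-fibre mean (8 genes), 5.51, while the other knockouts were at 7.44 to 9.06 and the wild types at 6.33 to 8.37; its part in the result was not tested.

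**Figure D3:**
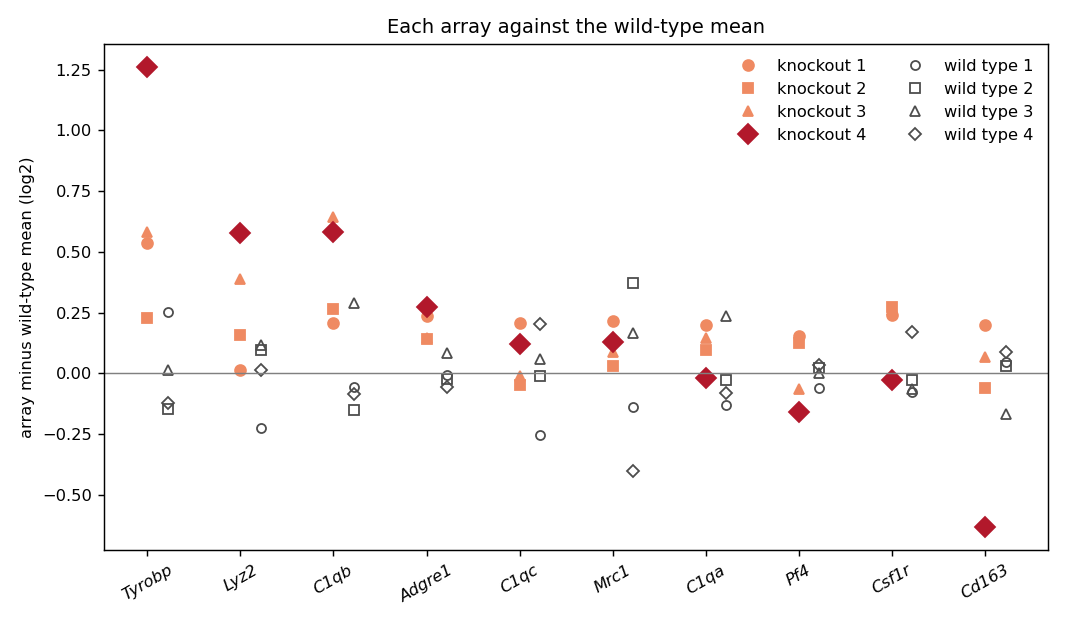
Each array's value minus the wild-type mean (log2) for the 10 genes, ordered by how far knockout 4 lies from the other knockouts. Knockout 4 (large red diamonds) runs from 1.26 above the wild-type mean for Tyrobp to -0.63 for Cd163, while open grey symbols show the spread of the wild types.

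Of 21 other resident macrophage genes measured, 10 had higher and 11 lower means in knockout (median difference -0.00285; list means 5.49 to 5.80 in knockout and 5.61 to 5.83 in wild type), and 0 had an unadjusted p under 0.05 in limma (background 5.73% in either direction), so 0 passed after adjustment. Without knockout 4, 14 had higher and 7 lower means (median difference 0.02, 1 higher at an unadjusted p under 0.05), and without wild type 2 the split was 8 and 13 (median -0.07). Lyve1, a hyaluronan receptor of perivascular macrophages, averaged 6.44 ± 0.27 in knockout and 6.56 ± 0.12 in wild-type muscle, and the folate receptor Folr2 6.02 ± 0.12 in knockout and 5.98 ± 0.27 in wild type. Cbr2, a carbonyl reductase, had a lower mean in knockout (difference -0.38, SE 0.18, limma adjusted p = 0.861). In knockout 4, 9 of these 21 genes (42.9%) lay below every wild type and 1 above, against 19.0% below and 15.9% above over all genes.

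Of 20 general macrophage and leukocyte genes measured, 19 had a higher mean in knockout (median difference 0.23; list means 5.31 to 5.79 in knockout and 5.13 to 5.30 in wild type), 7 at an unadjusted p under 0.05 in limma (2.34% of all genes), and 0 after adjustment. Without knockout 4, 18 had a higher mean (median difference 0.13), 6 at an unadjusted p under 0.05 (1.76% of all genes) and 0 after adjustment. The difference between this list and the resident list was not tested. Cybb, the catalytic chain of the phagocyte oxidase, measured 5.49, 5.62, 5.81 and 7.15 in the knockouts, against 5.01, 5.27, 5.54 and 4.97 in the wild types (difference 0.82, limma adjusted p = 0.859; 0.44 without knockout 4). Cd68, a lysosomal protein of macrophages, separated the groups, with 5.70 to 7.35 in knockout and 5.33 to 5.68 in wild-type muscle. Its difference was 0.68 (limma adjusted p = 0.861), and 0.31 without knockout 4. In this list 3 of 20 genes were apart and higher in knockout, against 1.48% of all genes. Mpeg1, a pore-forming protein of macrophages, differed by 0.55 (0.32 without knockout 4) and Ptprc, the leukocyte antigen CD45, by 0.23 (0.14 without it), and neither passed (limma adjusted p = 0.845 and 0.869).

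Genes of lipid-laden macrophages with many lysosomes had 14 of 16 higher means (median difference 0.16), against 45.3% of all genes. At an unadjusted p under 0.05 in limma 1 was higher (2.34% of all genes), and 0 passed after adjustment. Without knockout 4, 12 of 16 were higher (median difference 0.12), against 45.2% of all genes. Knockout 4 lay above every wild type for 13 of the 16, against 15.9% of all genes. Gpnmb, a lysosomal glycoprotein, measured 5.52, 5.32, 6.59 and 9.09 in the knockouts, against 5.26, 5.21, 5.42 and 5.47 in the wild types. Knockouts 3 and 4 lay well above the wild types, knockout 1 just above and knockout 2 among them (difference 1.29, limma adjusted p = 0.861; 0.47 without knockout 4). The galectin gene Lgals3 measured 6.06, 6.04, 6.47 and 7.75 in the knockouts, against 5.98, 5.89, 5.88 and 5.76 in the wild types. The Lgals3 difference was 0.70 (limma adjusted p = 0.861), and 0.31 without knockout 4. Its groups did not overlap, the case for 1 of the 16 genes and 1.48% of all genes, higher in knockout.

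Around C1q itself, a list of 19 measured genes held components of the classical pathway, regulators, binding proteins and leukocyte receptors. Of these, 11 had higher and 8 lower means (median difference 0.02). At an unadjusted p under 0.05 in limma, 3 were higher (the receptor genes C3ar1, Itgam and Itgax) and 1 lower (C1ra), with 0 after adjustment. Over all genes 2.34% were higher and 3.39% lower at that level. Without wild type 2 both the majority and the median turned, with 9 higher and 10 lower means (median -0.02). The protease C1ra averaged 4.66 ± 0.14 in knockout and 4.96 ± 0.14 in wild-type muscle (difference -0.30, unadjusted p = 0.0121, limma adjusted p = 0.836), opposite in sign to C1qb. C1s1, the other protease of C1, differed by -0.04 and the C1 inhibitor gene Serping1 by 0.00043 (limma unadjusted p = 0.654 and 0.997). The substrate C4b averaged 5.62 ± 0.19 in knockout and 5.82 ± 0.25 in wild type (limma adjusted p = 0.876). Receptors for later fragments had higher means: C3ar1, the C3a receptor, measured 5.64, 5.61, 5.86 and 6.82 in the knockouts, against 5.32, 4.99, 5.52 and 5.13 in the wild types (difference 0.74, limma adjusted p = 0.768; 0.46 without knockout 4). Itgam, a chain of complement receptor 3, differed by 0.24 (limma adjusted p = 0.859). The groups did not overlap for 3 of the 19 genes (C3ar1, Itgam and C1qbp), all higher in knockout, against 1.48% of all genes. C3ar1 and Itgam were named for their small p in these same data, so their separation is no further evidence.

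Upstream of Csf1r, the ligand genes had lower means. Csf1 averaged 5.44 ± 0.13 in knockout and 5.49 ± 0.06 in wild-type muscle, and Il34 5.18 ± 0.22 in knockout and 5.40 ± 0.14 in wild type (limma adjusted p = 0.954 and 0.876). Among these ligands, related receptors and macrophage transcription factors 7 of 14 had higher means and 7 lower, with 1 in each direction at an unadjusted p under 0.05 and 0 after adjustment in limma. Without knockout 4, 5 were higher and 9 lower (median -0.03), with 0 in either direction at an unadjusted p under 0.05. With all 8 arrays the higher one was Csf2rb, the shared beta chain of cytokine receptors (difference 0.31, limma adjusted p = 0.859). The lower one was the transcription factor Klf4 (difference -0.35, limma adjusted p = 0.861). Without knockout 4 the differences were 0.19 for Csf2rb and -0.25 for Klf4.

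Among receptors, adaptors and signalling genes around Tyrobp, 9 of 17 had higher means and 8 lower (median difference 0.03). At an unadjusted p under 0.05 in limma, 3 were higher, with 0 after adjustment (2.34% of all genes were higher at the unadjusted level). These were the receptor genes Cd300ld and Trem2 and the signalling gene Blnk. Without knockout 4, 11 were higher (median 0.02), 2 at an unadjusted p under 0.05. Cd300ld, a myeloid receptor of the CD300 family, measured 4.89, 4.88, 4.74 and 5.11 in the knockouts, against 4.10, 4.38, 4.46 and 4.62 in the wild types. The Cd300ld difference was 0.51 (SE 0.12, limma adjusted p = 0.378), and 0.45 without knockout 4. Its groups did not overlap, the case for 2 of the 17 genes and 1.48% of all genes, higher in knockout. Cd300ld was named for its small p in these same data, so its separation is no further evidence. Trem2 measured 5.53, 5.56, 5.59 and 6.29 in the knockouts, against 5.59, 5.24, 5.39 and 5.08 in the wild types (difference 0.42, limma adjusted p = 0.859; 0.23 without knockout 4). Fcer1g, an adaptor related to Tyrobp, differed by 0.20 (limma adjusted p = 0.876), by 0.11 without knockout 3 and by 0.32 without knockout 2.

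**Figure D4:**
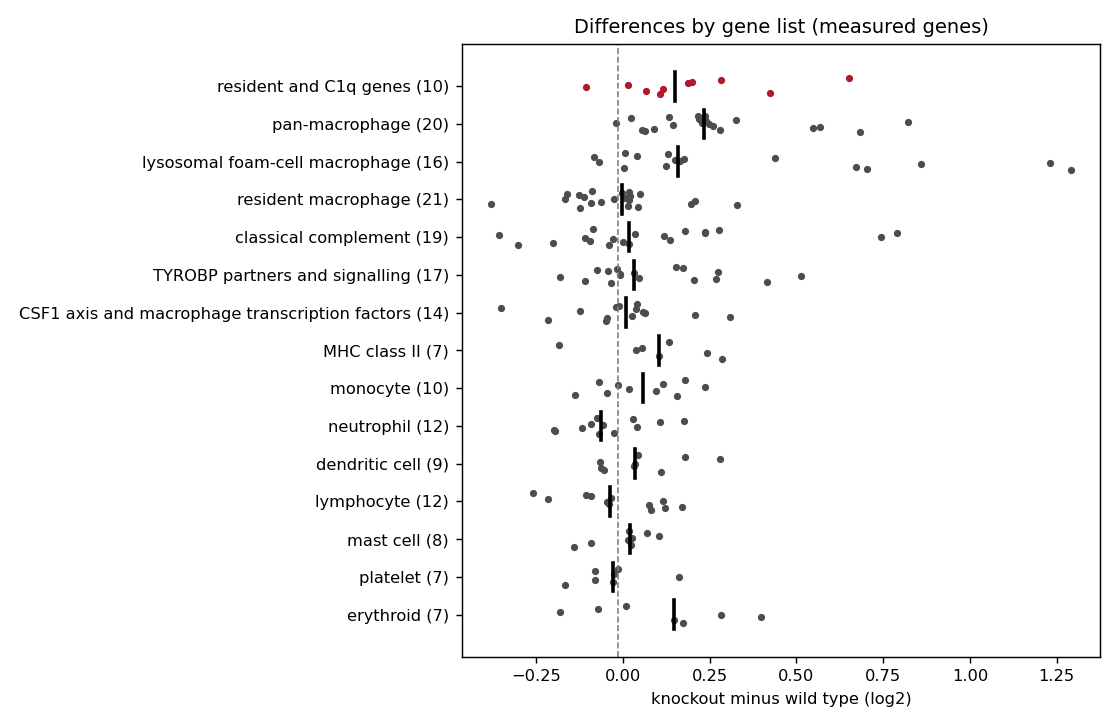
Knockout minus wild-type difference (log2) of every measured gene in 15 lists, with the number of genes in brackets, a black bar at each list's median and a dashed line at the median of all genes (-0.01). The medians of the resident and C1q genes (0.15, red), the pan-macrophage list (0.23) the foam-cell list (0.16) and the erythroid list (0.15) lie to the right, and that of the other resident macrophage genes lies near 0.

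Markers of other blood-borne cells that share some of the 10 genes were set beside them. Over all genes, 45.3% had a higher mean in knockout. Neutrophils also make Lyz2; their list had 4 of 12 higher means, and its mean level was 3.49 to 3.53 in the knockouts and 3.42 to 3.60 in the wild types. Platelets make Pf4; 1 of 7 platelet genes had a higher mean, and the list lay at 4.57 to 4.66 in the knockouts and 4.61 to 4.66 in the wild types, with the platelet chemokine Ppbp at 4.52 ± 0.18 in knockout and 4.69 ± 0.28 in wild type. Monocyte genes had 6 of 10 higher means (median difference 0.06), with the chemokine receptor Ccr2 at 3.34 ± 0.10 in knockout and 3.18 ± 0.31 in wild type. Genes of antigen presentation on MHC class II had 6 of 7 higher means (median difference 0.10), and H2-Aa differed by 0.29 (limma adjusted p = 0.859; 0.19 without knockout 3). The erythroid list means did not overlap between genotypes: 5 of 7 genes had higher means, the list lay at 5.39 to 5.53 in the knockouts and 5.32 to 5.38 in the wild types, and Car2 averaged 5.97 ± 0.34 in knockout and 5.57 ± 0.30 in wild type. Without wild type 2 the median differences of the monocyte, MHC class II and erythroid lists were 0.0057, 0.05 and 0.07, with 5 of 10, 5 of 7 and 4 of 7 higher means. No marker is listed at 0, since the lowest deposited value is 0.754. The neutrophil and monocyte list means and Ccr2 lay below the array medians of 4.61 to 4.72, and the platelet list lay close to them. Whether these markers stood above background cannot be told, so their counts do not show whether those cells differed. The part of neutrophil, platelet, monocyte or erythroid RNA in the result was not tested.

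As a measure of likeness, Pearson's r over the 8 arrays was taken between every other gene and the mean of the 3 C1q chains. That mean was 6.17 to 6.33 in the knockouts and 5.92 to 6.27 in the wild types. The closest genes were Eid3 (r = 0.97), St6galnac3 (0.95), Ankrd23 (0.93), Rxfp2 (0.92) and Sh3yl1 (0.92), and 12 genes exceeded 0.9. For the mean of Cd163 and Pf4 they were Krtap4-16 (0.98), Tnfsf4 (0.96), Dip2b (0.96), Mirlet7a-2 (0.96) and Zfp353-ps (0.94). None of these 10 genes is in a macrophage list used here; with 8 arrays and 19938 genes such values describe these arrays only.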

How the data were processed

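Total RNA (100 ng per animal) was hybridised to Affymetrix arrays, as the labels' protocols state. The authors deposited log2 values in 1 table; the submitters' processing notes name RMA and Affymetrix Expression Console, while settings and genome build are not stated in what was used. RMA compresses differences of dim genes, and precision is limited by the 8 arrays. Of 35556 transcript clusters, 21789 carried 1 gene symbol, 1621 several and 12146 none here. The cluster with the highest mean represented a gene, with no filter on dim genes (19938 genes).

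Groups came from the titles, with 1 array per animal. limma 3.58.1 (lmFit, then eBayes; R 4.3.3) tested knockout against wild type, with Benjamini-Hochberg adjustment over all genes; the median SE of a difference was 0.105, and 0.0812 to 0.182 for the 10 genes. Known changes in simulated data were used to test the fit. Alternatives were 3 normalizations, filters on dim genes, the mean over clusters, other priors, array weights, a replicate block, all clusters and leaving out arrays.

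The 10 genes, the lists and the alternatives were chosen with earlier results of these data known. Genes named beside the 10 were picked by role, as the 2 with the smallest p of a list, or by likeness. The lists held 240 other entries, of which 217 were measured. Promoter bases came from RefSeq (GRCm38.p6). Python 3.11.15 with matplotlib 3.10.9 drew the figures.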

Additional observations from a re-analysis of the deposited data

Results flagged for a closer look

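In groups of 4 arrays the gap of an extreme array to its nearest neighbour was compared with Dixon's critical value, 0.829 of the group's range, which chance passes in about 1 in 20 groups; 4 of 72 groups passed. Csf1r in knockout 4 (6.00) lay below the other knockouts (6.26 to 6.30; ratio 0.890). Trem2 in knockout 4 (6.29) lay above the other knockouts (5.53 to 5.59; ratio 0.919). C4b in wild type 2 (5.44) lay below the other wild types (5.90 to 5.96; ratio 0.886), and Il34 in wild type 3 (5.61) above them (5.30 to 5.35; ratio 0.864). The causes were not tested.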

How the results depend on the processing

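None of the 10 genes passed a limma adjusted p of 0.05 under any of the 19 alternatives (lowest 0.333, C1qb without wild type 3). Their median difference stayed between 0.12 and 0.19. Of 188 values of single genes among the 10, 180 kept their direction and 8 reversed. Pf4 was -0.00156 after median centring, and Cd163 was 0.0785 without knockout 4 and wild type 2 together. Leaving out 1 array at a time gave -0.0323 to 0.0716 for Pf4 (negative without knockout 1, knockout 2 or wild type 1), -0.208 to 0.0688 for Cd163 (positive without knockout 4), -0.0171 to 0.135 for C1qc (negative without wild type 1) and -0.0184 to 0.240 for Mrc1 (negative without wild type 4). Among 26 other named genes, 3 of 485 values reversed: Folr2 ran from -0.0346 to 0.171 (negative without knockout 3 or wild type 4) and Lyve1 from -0.196 to 0.00882 (positive without knockout 4). The number with an unadjusted p under 0.05 in limma, 4 of 10, ran from 2 (after median centring or without wild type 1) to 5 (with array weights). The 3 genes called over the whole array became 0 with all deposited clusters or the replicate block, 17 with an intensity trend and robust prior, 11 and 13 without the dimmest 25% and 50%, 1 without knockout 4 and wild type 2 together, and 0 to 5 when 1 array was left out. Same-numbered arrays had correlated deviations of -0.10 to 0.22, against -0.23 to 0.12 for differently numbered arrays. The highest value was that of the arrays numbered 3. The numbers were not taken as pairs, a choice that these values cannot settle. With the replicate block, 0 of the 10 genes passed and their median difference was 0.15. Without the dimmest 50%, Cd163 and Adgre1 were not tested.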
